A study of Mus musculus with 39 samples.

Results

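The genes described here encode collagens, laminins and integrins. They were taken as the genes whose transcript accession on the array maps, through the RefSeq mouse annotation, to a symbol of the Col, Lama, Lamb, Lamc, Itga or Itgb series, without the integrin-binding proteins Itgb1bp and Itgb3bp. Of 83 such genes in RefSeq, 77 had at least 1 probe, among 18327 genes with a RefSeq symbol on the array, and comprised 42 collagens, 10 laminins and 25 genes named as integrins. One of the latter, *Itgbl1*, is integrin beta-like and is not known as a subunit. The other 6 genes, among them the laminin γ1 chain gene *Lamc1* and the integrin β8 gene *Itgb8*, were not analysed here. The 77 genes were covered by 125 probes, and each gene is given by its probe with the highest mean level over the 39 arrays unless another probe is named.

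Collagens and laminins are trimers, assembled in laminins and in some collagens from chains of different genes. Type IV collagen and laminin form the sheet of the basement membrane, where laminin trimers hold 1 α, 1 β and 1 γ chain, whereas the fibrillar collagens of types I, III, V and XI form fibrils in the interstitial matrix. Integrins are heterodimers of an α and a β chain in the plasma membrane that bind matrix proteins or counter-receptors on other cells, and the β1 chain pairs with many α chains. Cumulus cells, the granulosa cells that surround the ovulated oocyte, lay down an expanded matrix before ovulation, and integrins of the oocyte surface have long been studied in sperm binding.

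The study used 7 groups of (B6xDBA/2)F1 mouse samples, 1 array per sample. OC were unfertilized metaphase II oocytes (n = 7), IVF were 2-cell embryos from *in vitro* fertilization (n = 6), and Cumulus were freshly dispersed cumulus cells of the kind used as nuclear donors (n = 4). Embryos cloned by somatic cell nuclear transfer (SCNT) from cumulus cells were analysed at the 2-cell stage without treatment (TSA(–), n = 8), after 5 nM of the histone deacetylase inhibitor trichostatin A for 8 h from activation (TSA(+), n = 6), or after injection of mRNA of the Ets-family transcription factor Spi-C at 1.0 mg/ml (n = 4) or 0.1 mg/ml (n = 4), together called Spi-C NT. Each array of oocytes or embryos came from 10 pooled oocytes or embryos and each Cumulus array from 500 cells, embryos had been cultured for 24 h, and all cloned groups share cumulus cells as donors. The labels do not say whether pools of a group came from separate animals or sessions, so p-values measure the spread between pools.

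Levels are the log2 of the processed intensity of a probe relative to the 75th percentile of its array, so a level of 0 is the intensity of a probe at that percentile, and levels of different probes cannot be set against each other. That percentile had a median of 373 intensity units in OC and between 918 and 2523 in the other groups, and medians of 57.5% (OC) to 73.2% (IVF) of the probes were well above background. OC, IVF, TSA(–) and TSA(+) arrays were scanned on 1 scanner model, and Cumulus and Spi-C NT arrays on another with a later software version, so cell type or Spi-C injection and scanner cannot be told apart in comparisons across these sets. The summed level of 15 cumulus and granulosa markers was 306 to 329 times the 75th percentile on Cumulus arrays and 3.71 to 16.0 times on the arrays of the other groups. The 11 oocyte markers summed to between 3220 and 5290 times in OC and to at most 4.59 times in Cumulus, where 7 of them, *Zp2*, *Bmp15*, *Oosp1*, *Nlrp5*, *Mos*, *Zar1* and *Figla*, were well above background on no array.

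Of the members, 36 were well above background on all 7 OC arrays, 57 on all IVF arrays and 53 on all Cumulus arrays. The cloned groups had 53 such members without and 55 with TSA, and 59 and 60 at the 1.0 and 0.1 mg/ml of Spi-C mRNA. A gene was called when the Benjamini-Hochberg adjusted p of limma was under 0.01, adjusted over all probes tested. In Cumulus against IVF, 29 of the 77 members were higher and 28 lower, beside 29.5% and 35.1% of all 18105 genes tested. In Cumulus against OC, 27 were higher and 32 lower (29.4% and 46.9% of all genes), and in IVF against OC 20 were higher and 26 lower (27.5% and 44.6%). In TSA(–) against IVF, 11 were higher and 6 lower (10.1% and 13.4% of all genes), and in TSA(+) against IVF 12 and 7 (10.3% and 14.1%). In Spi-C NT against TSA(–), 5 were higher and 5 lower (12.5% and 11.2%), and in Spi-C NT against IVF 17 and 12 (19.5% and 22.3%). In TSA(+) against TSA(–), no member was higher and 1 was lower, beside 0.0663% and 0.0442% of all genes. As shares of the 77 members, these counts were 37.7% and 36.4% in Cumulus against IVF, 26.0% and 33.8% in IVF against OC, 14.3% and 7.79% in TSA(–) against IVF, and 6.49% each way in Spi-C NT against TSA(–). The median member differed by −0.85 in Cumulus against IVF and by −0.40 in IVF against OC, where the median of all genes differed by −0.17 and −0.73, and the median of all genes was shifted by −1.01 in Cumulus against OC. In the comparisons of clones the medians of all genes lay between −0.20 and 0.07.

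**Figure D1:**
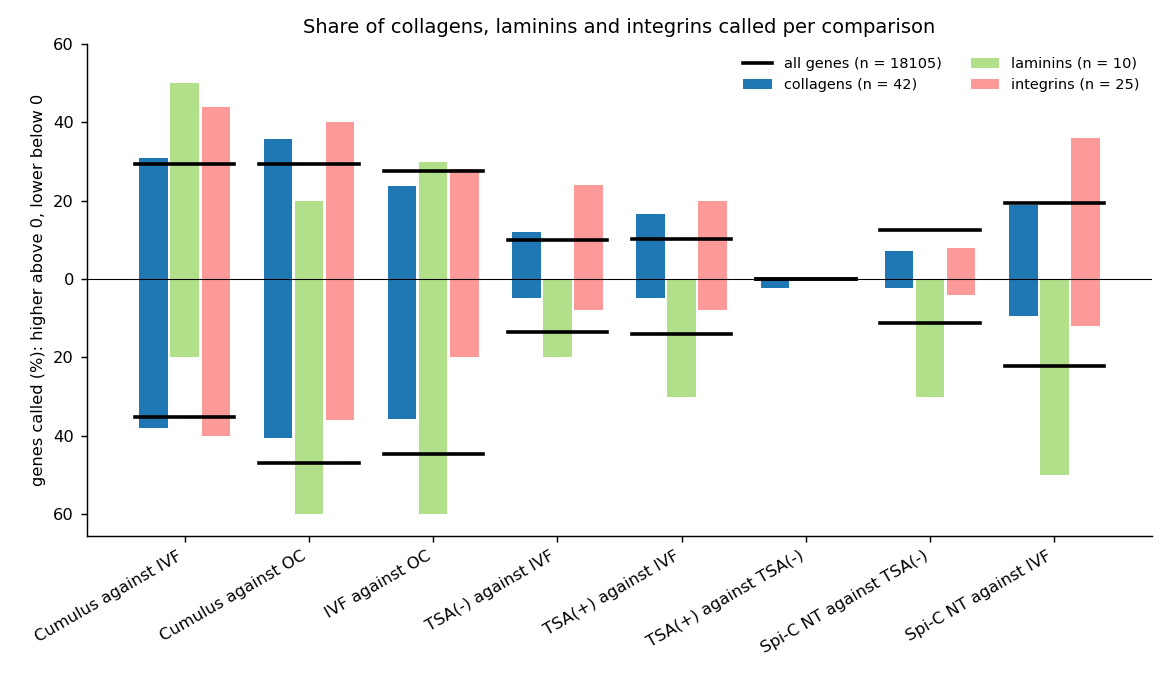
Share of the 42 collagens, 10 laminins and 25 integrin genes called in each comparison (y axis, percent; genes higher in the first-named group above 0, lower ones below 0; 1 bar per family), with black lines for the share of all genes. Laminins were called lower in 20% to 60% of cases in each comparison shown but TSA(+) against TSA(–), and none was called higher in a cloned group.

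No laminin was called higher in any of the 6 comparisons that involve cloned embryos, and 10 genes are few. Of all genes, 0.0663% were higher in TSA(+) against TSA(–), 0.0% were called between Spi-C concentrations, and 10.1% to 19.5% were higher in the others. Of the 10 laminins, 3 were lower in TSA(+) against IVF and 5 in Spi-C NT against IVF, beside 14.1% and 22.3% of all genes. Of the 25 integrin genes, 6 were higher and 2 lower in TSA(–) against IVF, beside 10.1% and 13.4% of all genes. In Spi-C NT against IVF 9 were higher and 3 lower, beside 19.5% and 22.3%. Of the 42 collagens, 5 were higher and 2 lower in TSA(–) against IVF. Whether these shares differ between families was not tested.

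Cumulus cells carried some collagen transcripts far above the embryo, while more collagens were called lower than higher. Of the 42 collagens, 13 were higher and 16 lower in Cumulus than in IVF, beside 29.5% and 35.1% of all genes. The median collagen differed by −0.86 and the median of all genes by −0.17. Among called members without overlap between groups that were above background throughout the higher group, the 8 with the largest fitted excess over IVF were *Itga2*, *Col6a1*, *Col11a1*, *Col5a2*, *Col4a5*, *Col5a1*, *Col3a1* and *Col4a1*. Most of these encode chains of fibrillar or basement membrane collagens, *Col6a1* encodes a chain of the beaded-filament type VI collagen, and *Itga2* encodes the α2 chain of a collagen receptor. *Col6a1* had levels of 1.14, 1.64, 0.67 and 0.63 on the 4 Cumulus arrays and between −8.80 and −5.47 on the 6 IVF arrays, of which 1 was well above background. Its difference from IVF was 8.78 ± 0.50 on the log2 scale (SE; adjusted p = 1.22e-15). *Col5a2* stood at 0.88, 0.58, 0.65 and 1.16 in Cumulus and between −9.01 and −5.01 in IVF (difference 7.81 ± 0.77, adjusted p = 3.31e-10). That no Cumulus array overlapped an IVF array for any of the 8 genes was a condition of their choice. In pooled samples, fewer cells of a type and less RNA per cell cannot be told apart.

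*Col5a1* stood at 2.58, 2.39, 2.20 and 1.98 in Cumulus and was well above background on none of the 7 OC arrays, which makes it at least 387-fold higher in Cumulus than in OC by this probe. A second *Col5a1* probe ran the other way, with an OC level 4.80 ± 0.69 above Cumulus (adjusted p = 3.69e-07), and its levels were well above background on every array. The 2 probes share an accession, and where each lies in the transcript was not analysed here. *Col3a1* was at 2.01, −1.01, −0.25 and 0.11 in Cumulus and between −8.69 and −4.50 in IVF (difference 6.90 ± 0.74, adjusted p = 2.62e-09). Neither type I chain gene was called against IVF. *Col1a2* stood at −0.14, −4.36, −5.91 and −1.47 on the Cumulus arrays, a spread that overlapped the IVF range of −5.47 to −3.34 (difference 1.13 ± 0.75, adjusted p = 0.196). *Col1a1* was at −3.18, −5.12, −5.16 and −3.65 in Cumulus and between −3.75 and −2.52 in IVF (difference −1.12 ± 0.45, adjusted p = 0.0297). The first Cumulus array, highest for *Col3a1* and *Col1a2*, also had the highest summed level of 6 stroma and theca markers, 5.19 times the 75th percentile against 0.907 to 2.67 on the other Cumulus arrays, and the part of such cells in the result was not tested.

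The main basement membrane chains were high in Cumulus as well. *Col4a1* had levels of 4.85, 5.19, 5.44 and 5.00 on the Cumulus arrays, between −0.08 and 1.89 in OC, and between −1.52 and −0.75 in IVF. *Col4a2*, whose product joins that of *Col4a1* in the common type IV trimer, had levels of 4.02, 4.58, 4.15 and 3.72 in Cumulus, between −4.54 and −2.83 in OC, and between −2.67 and −1.32 in IVF. Both were therefore far above IVF in Cumulus, by 6.19 ± 0.30 for *Col4a1* (adjusted p = 4.02e-17) and 6.13 ± 0.30 for *Col4a2* (adjusted p = 4.36e-17). From OC to IVF they moved in opposite directions, *Col4a1* by −1.85 ± 0.26 (adjusted p = 2.99e-07) and *Col4a2* by 1.56 ± 0.26 (adjusted p = 4.44e-06), while the median gene moved by −0.73. The second probe of each gene gave the same direction in Cumulus, and from OC to IVF −0.73 for *Col4a1* and 0.60 for *Col4a2*, the latter not called.

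*Col4a1* and *Col4a2* lie head to head, and their promoters are shown because they share bases while their transcripts parted between oocyte and embryo. The sequences are those of RefSeq on GRCm38.p6 around each start, written 5′ to 3′ on the strand of the gene. Capitals mark the CCAAT motif, the TATAAA motif and the GC box GGGCGG, each searched on both strands:
Col4a1, chr8:11312777-11313076 (− strand): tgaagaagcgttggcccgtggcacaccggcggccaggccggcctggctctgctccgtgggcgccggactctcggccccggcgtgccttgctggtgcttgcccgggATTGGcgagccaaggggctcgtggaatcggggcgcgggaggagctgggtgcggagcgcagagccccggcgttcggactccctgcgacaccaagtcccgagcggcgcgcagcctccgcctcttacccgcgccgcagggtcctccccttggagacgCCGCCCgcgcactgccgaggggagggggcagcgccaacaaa
Col4a2, chr8:11312555-11312854 (+ strand): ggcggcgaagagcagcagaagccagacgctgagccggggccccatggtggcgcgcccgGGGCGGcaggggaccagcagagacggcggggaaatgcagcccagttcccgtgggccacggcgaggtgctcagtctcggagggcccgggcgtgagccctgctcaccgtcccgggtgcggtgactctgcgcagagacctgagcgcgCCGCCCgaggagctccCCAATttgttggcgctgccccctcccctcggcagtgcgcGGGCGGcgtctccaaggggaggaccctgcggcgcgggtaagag
The 2 windows overlap over 78 bases, chr8:11312777-11312854, and the annotated start sites are 21 bases apart. CCAAT occurs 1 time in each window, GGGCGG occurs 1 time in that of *Col4a1* and 3 times in that of *Col4a2*, and TATAAA in neither. The GGGCGG match of *Col4a1* lies in the shared bases and is the same site as 1 of the 3 of *Col4a2*. Of all 32851 promoter windows in the table, 37.4% hold CCAAT, 35.7% hold GGGCGG and 13.6% hold TATAAA on either strand. These matches describe the letters alone.

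Of the laminin chains, *Lama1* had levels of 3.0, 3.03, 2.58 and 2.65 in Cumulus, between −7.07 and −4.09 in OC and between −3.89 and −2.27 in IVF. It was higher in Cumulus than in IVF by 6.17 ± 0.42 (adjusted p = 8.97e-14) and higher in IVF than in OC by 1.97 ± 0.36 (adjusted p = 1.85e-05). *Lamb1*, the β1 chain gene, was higher in Cumulus than in IVF by 1.64 ± 0.21 (adjusted p = 6.45e-08) but lower than in OC by −4.69 ± 0.21 (adjusted p = 1.19e-18). *Lama5*, the α5 chain gene, was lower in Cumulus than in IVF by −2.90 ± 0.29 (adjusted p = 3.43e-10).

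Of the integrin β chains, *Itgb5* and *Itgb1* were above IVF in Cumulus, by 4.06 ± 0.21 (adjusted p = 1.05e-16) and 3.86 ± 0.23 (adjusted p = 3.38e-15). *Itgb3*, whose product pairs with αv as a vitronectin receptor, was at 5.05, 4.93, 5.13 and 4.98 in Cumulus and between 4.50 and 5.07 in IVF, and overlapped it (0.19 ± 0.18, adjusted p = 0.38). *Itga5*, encoding the fibronectin receptor α chain, was higher in Cumulus by 3.27 ± 0.69 (adjusted p = 0.000147), although 2 of 6 IVF arrays were well above background. The leukocyte integrin genes *Itgam* and *Itgb2* were higher by 2.94 ± 0.85 (adjusted p = 0.00334) and 1.55 ± 0.39 (adjusted p = 0.00085). Both were highest on the fourth Cumulus array, at 0.88 and 0.62. There the 9 measured leukocyte markers summed to 8.54 times the 75th percentile, against 2.73 to 8.30 times on the other Cumulus arrays and 0.745 to 1.44 times in IVF. Of these markers, 7 were called higher and 1 lower in Cumulus than in IVF, *Laptm5* was well above background on no Cumulus array, and the part of leukocytes in the integrin values was not tested.

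By the same conditions, the 8 members with the largest deficit in Cumulus were *Itgb6*, *Col4a3*, *Itga8*, *Col14a1*, *Col13a1*, *Col6a6*, *Itgae* and *Itga6*. *Itgb6*, the β6 chain of an epithelial αv integrin, was well above background on no Cumulus array and was at least 167-fold higher in IVF (adjusted p = 1.71e-17). *Col4a3*, a chain of the type IV trimer found in few basement membranes, was likewise well above background on no Cumulus array and at least 145-fold higher in IVF (adjusted p = 6.2e-23). *Itga6*, a laminin receptor chain known from the egg surface, stood at −3.59, −3.39, −3.75 and −4.31 in Cumulus and between 2.14 and 2.73 in IVF (difference −6.11 ± 0.28, adjusted p = 1.04e-17).

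Most of the measured genes that act on collagens were higher in Cumulus. Of 20 measured genes for collagen processing, 14 were higher and 3 lower in Cumulus than in IVF, with a median difference of 2.47 against −0.17 over all genes. They included the collagen chaperone gene *Serpinh1* (6.02), the lysyl hydroxylase gene *Plod2* (8.27) and the crosslinking oxidase gene *Loxl2* (9.02). Of 16 matrix partners, 9 were higher and 2 lower, among them the proteoglycan gene *Vcan* (11.81) and *Sparc* (8.17) on the higher side and *Nid2* (−5.04) on the lower. Of 20 integrin adaptors and kinases, 11 were higher and 3 lower, and of 15 matrix proteases and inhibitors 8 were higher and 2 lower. Over all genes, 29.5% were higher and 35.1% lower in Cumulus than in IVF.

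**Figure D2:**
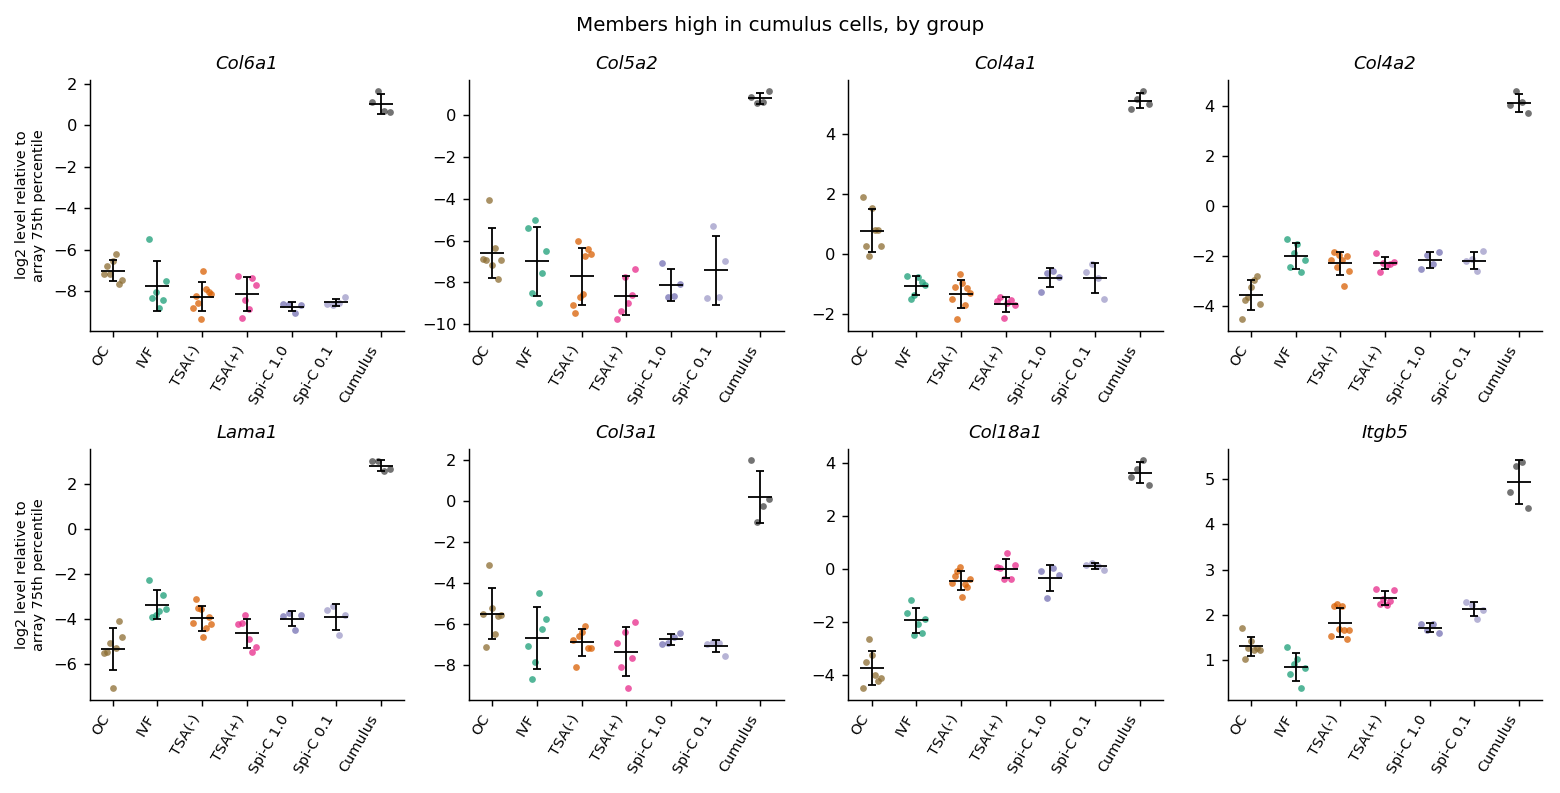
Log2 level over the array's 75th percentile (y axis, 1 scale per gene) for 8 members high in Cumulus, with 1 point per array in 7 groups and bars for the mean and SD. The 4 Cumulus arrays lie above all embryo and oocyte arrays for each gene shown, and the cloned groups lie near IVF for *Col6a1*, *Col5a2*, *Col4a1*, *Col4a2*, *Lama1* and *Col3a1* but above IVF for *Col18a1* and *Itgb5*.

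Between oocyte and fertilized 2-cell embryo, the members showed large movements both ways. *Lamb1* had levels between 8.15 and 9.18 in OC, with a median of 8.51, and between 1.96 and 2.69 in IVF, with a median of 2.21. It fell by 6.33 ± 0.18 (adjusted p = 2.91e-22), an 80.7-fold difference. *Itgb1* fell from between 3.65 and 4.63 in OC to between −0.50 and 0.05 in IVF (−4.43 ± 0.20, adjusted p = 4.12e-18). No array of one group reached the range of the other for these 2 genes, which was a condition for the ranking. The others of the 6 with the largest falls were *Col9a2* (−4.90 ± 0.72), *Lama2* (−4.27 ± 0.28), *Col9a3* (−3.81 ± 0.46) and *Col24a1* (−3.56 ± 0.24), each with an adjusted p of at most 6.6e-07. *Col9a2* and *Col9a3* encode chains of the fibril-associated type IX collagen, *Col24a1* a fibrillar collagen, and *Lama2* the laminin α2 chain. One OC array stood at −2.01 for *Col9a2* while the median of the 7 was 2.96.

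The promoter of *Lamb1* is shown as that of the member with the largest fall from oocyte to embryo, in the same form and with the same motifs in capitals:
Lamb1, chr12:31265043-31265342 (+ strand): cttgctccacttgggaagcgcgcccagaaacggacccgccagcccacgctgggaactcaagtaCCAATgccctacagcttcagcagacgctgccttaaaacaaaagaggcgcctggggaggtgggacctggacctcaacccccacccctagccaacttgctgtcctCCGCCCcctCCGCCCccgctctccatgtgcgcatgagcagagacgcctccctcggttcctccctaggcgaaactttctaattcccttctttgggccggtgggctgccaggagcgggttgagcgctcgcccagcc
It holds CCAAT 1 time, GGGCGG 2 times and no TATAAA.

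The 6 members with the largest fitted rises by those conditions were *Col8a2*, *Col5a3*, *Itgae*, *Col17a1*, *Itgb7* and *Itgam*. *Col8a2*, a network-forming collagen gene, stood between −7.75 and −5.70 in OC, where no array was well above background, and between −1.38 and −0.85 in IVF, and was at least 33.9-fold higher in IVF (adjusted p = 4.33e-15). *Col5a3*, a minor fibrillar chain, was between −7.52 and −6.44 in OC, again well above background on no array, and between −2.80 and −0.32 in IVF, and was at least 31.3-fold higher (adjusted p = 1.4e-11). A second *Col5a3* probe was not called (difference 0.00 ± 0.28). *Itgae* and *Itgb7*, the 2 chains of the integrin αEβ7 of intraepithelial lymphocytes, both rose, *Itgae* from a median of −4.35 to 0.53 (5.09 ± 0.25, adjusted p = 3.09e-17) and *Itgb7* from −5.05 to −0.77 (4.31 ± 0.33, adjusted p = 1.42e-12). *Col17a1*, a transmembrane collagen of hemidesmosomes, rose from a median of −4.49 to 0.18 (5.04 ± 0.40, adjusted p = 2.89e-12). *Itgam*, well above background on no OC array, was at least 6.58-fold higher in IVF (adjusted p = 0.000128), while its second probe was not called (−1.39 ± 0.55) and the call was lost with the mean of its probes. *Lamb2* was higher by 3.02 (8.09-fold), which is above that bound, so the place of *Itgam* among the largest is not established. In the same comparison 1 leukocyte marker of 9 was higher and 3 were lower.

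Other members overlapped between oocyte and embryo. *Itgb3* stood between 3.93 and 5.17 in OC and between 4.50 and 5.07 in IVF (0.46 ± 0.16, not called), and *Itga6* between 0.94 and 3.19 in OC and 2.14 and 2.73 in IVF (0.39 ± 0.24, not called). *Itgav*, the αv chain, fell by 1.57 ± 0.19 (adjusted p = 1.6e-08) by the probe used here and was higher by 3.37 ± 0.26 by its other probe (adjusted p = 2.69e-12), so no direction is given for that gene. Of 4 genes whose probes were called in opposite directions from OC to IVF, the others were *Col1a1*, *Col23a1* and *Col5a1*. With each array centred on its median in place of the 75th percentile, 14 members were higher and 37 lower in IVF than in OC.

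**Figure D3:**
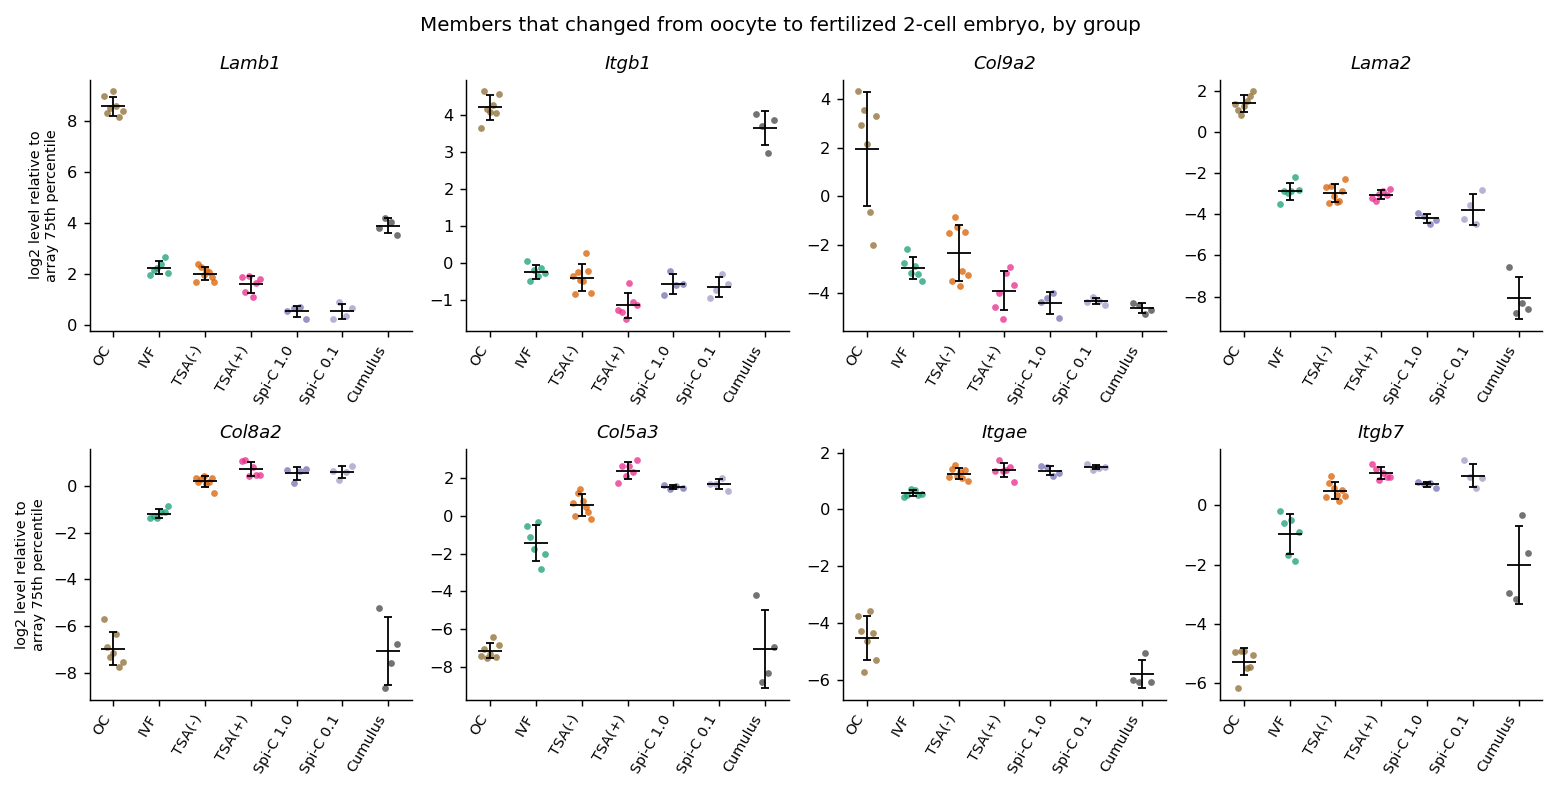
Log2 level over the array's 75th percentile (y axis, 1 scale per gene) for 4 members that fell and 4 that rose from OC to IVF, with 1 point per array in 7 groups and bars for the mean and SD. The 6 IVF arrays and the cloned groups lie far from OC in the same direction for each gene shown but *Col9a2*. For *Col9a2*, OC lies between −2.01 and 4.34, the highest IVF array at −2.18, and TSA(–) between −3.70 and −0.85, overlapping OC.

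Enzymes and partners of the matrix moved both ways in this step. Of 16 matrix partners 5 were higher and 5 lower in IVF than in OC, with the nidogen genes *Nid1* (5.42) and *Nid2* (6.76), which link laminin to type IV collagen, among the higher. Of 20 collagen-processing genes 7 were higher and 7 lower, with the prolyl hydroxylase gene *P4ha2* higher (5.42) and its partner subunit gene *P4hb* lower (−3.23). Of 20 integrin adaptors and kinases 3 were higher and 10 lower, among them the paxillin gene *Pxn* (−3.09). Over all genes, 27.5% were higher and 44.6% lower in IVF than in OC.

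To follow what is left of cumulus levels in clones, members called higher in Cumulus than in OC were taken, 27 in all, of which 22 were also called higher than in IVF. In Cumulus against OC, 8 of the 38 members with several probes had another probe called the opposite way. For these 22, the level in clones above IVF was expressed as a percentage of the level in Cumulus above IVF, on the linear scale of intensities, so that 0% is the IVF mean and 100% the Cumulus mean. The same IVF arrays helped to choose the 22 and set the 0%, so a low IVF level favours both. The percentage holds for the pool of RNA, and donor transcripts that were carried over cannot be told apart from transcripts made in the clone. Its median over the 22 members was −0.073% in TSA(–) (SD 0.2 over arrays), −0.0259% in TSA(+) (SD 0.166), −0.104% at 1.0 mg/ml Spi-C mRNA (SD 0.161) and −0.0554% at 0.1 mg/ml (SD 0.141). These medians depend on single arrays and on the scale, and their sign is not settled. Without IVF replicate 6 that of TSA(–) was 0.658%, and on the log2 scale it was 1.88%. Over all 3613 genes chosen in the same way, the medians ran from 0.863% to 1.39%. Of the 22 members, 16 were under 5% in TSA(–), 16 in TSA(+), 18 at 1.0 mg/ml and 15 at 0.1 mg/ml. These are 72.7%, 72.7%, 81.8% and 68.2% of the members, beside 68.2%, 63.7%, 64.0% and 63.5% of the 3613 genes. Counts under 5% include values below 0%, such as −38.9% for *Itga9* in TSA(+).

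The members with the largest Cumulus excess held little of it in clones. *Col5a1*, *Lama1*, *Col6a1*, *Col4a2* and *Col5a2*, the 5 with the largest fitted excess over OC, stood at 1.58%, −0.547%, −0.146%, −0.303% and −0.329% in TSA(–), and none of them was called against IVF in any cloned group. Their order is not established, since *Col5a1* and *Col6a1* were well above background on no OC array and *Col5a2* on 1. A small percentage can go with a sizeable difference from IVF, because Cumulus was so far above it. On the log2 scale *Col5a1* and *Itga2* had differences from IVF of 1.50 and 2.0 in TSA(–), and *Col5a2* of −1.64 in TSA(+), none of them called. *Col6a1* was well above background on none of the 8 TSA(–) arrays, where it lay between −9.35 and −7.02, and on none of the 8 Spi-C NT arrays. *Col4a1* was at −0.203% in TSA(–) and −0.493% in TSA(+), *Col3a1* at −0.373% and −0.448%, and *Itga2* at 2.36% and 0.301%. The summed level of the 15 cumulus markers was 9.50 to 13.8 times the 75th percentile in TSA(–), beside 13.1 to 15.1 times in IVF, and 0 of the 15 were called higher and 1 lower.

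A few of the 22 were above IVF in clones. The same IVF arrays served to choose the 22 and as the baseline of these calls, so a low IVF level favours both. In TSA(–), 4 of the 22 were called higher than in IVF (*Col27a1*, *Itga11*, *Col18a1* and *Itgb5*) and 2 lower (*Itgam* and *Lamb2*). In TSA(+) and in Spi-C NT the same 4 genes and *Col15a1* were higher, while *Lamb2* was lower in both and *Itgam* and *Itgax* were lower in Spi-C NT. The 27 members were chosen on Cumulus against OC. Of these, 5 were higher and 3 lower in TSA(–), with *Itgb7* added on the higher side and *Itgb3* on the lower. Among all 5328 genes higher in Cumulus than in OC, 16.6% were called higher and 11.2% lower in TSA(–). The 18.5% and 11.1% of the 27 members were near these shares. In TSA(+) the shares were 22.2% and 7.41% of members beside 18.6% and 9.42% of all such genes, and in Spi-C NT 22.2% and 18.5% beside 27.8% and 19.3%.

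*Col27a1*, a fibrillar collagen gene known from cartilage, was the member with the largest difference between clones and IVF. Its level was between −8.04 and −7.13 on the 6 IVF arrays, none of which was well above background, and between −6.51 and −4.93 in OC, where 3 of 7 arrays were. It was between −3.06 and −1.29 in TSA(–), with a median of −1.74, and between −2.42 and −0.93 in TSA(+), with a median of −1.97. The Spi-C NT arrays stood at −1.53, −2.28, −2.63 and −1.57 at 1.0 mg/ml and at −2.23, −2.40, −1.85 and −1.41 at 0.1 mg/ml. The Cumulus arrays stood at −3.15, −3.20, −3.65 and −2.74, so that all but 1 of the 22 cloned arrays were above the highest Cumulus array, and the ranges of clones and IVF did not overlap.

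On the linear scale, *Col27a1* in clones reached 254% of its Cumulus excess over IVF in TSA(–), 283% in TSA(+), 239% at 1.0 mg/ml and 241% at 0.1 mg/ml. It was at least 42-fold higher in TSA(–) than in IVF (adjusted p = 1.08e-14), at least 46.7-fold in TSA(+) (adjusted p = 3.42e-14) and at least 41.3-fold in Spi-C NT (adjusted p = 7.87e-14). TSA(–) was above IVF within each of the 3 slides that held both groups. A second *Col27a1* probe, well above background on 20 of the 39 arrays, was not called in TSA(–) or TSA(+) against IVF (1.53 ± 0.58 and 1.53 ± 0.63) and was called higher in Spi-C NT (2.45 ± 0.58, adjusted p = 0.00116). That probe was also lower in Cumulus than in OC (−2.05 ± 0.68, adjusted p = 0.0079), so the high Cumulus level and the size of the rise rest on 1 probe.

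The *Col27a1* promoter is shown as that of the member with the largest rise in clones, in the form used above:
Col27a1, chr4:63215162-63215461 (+ strand): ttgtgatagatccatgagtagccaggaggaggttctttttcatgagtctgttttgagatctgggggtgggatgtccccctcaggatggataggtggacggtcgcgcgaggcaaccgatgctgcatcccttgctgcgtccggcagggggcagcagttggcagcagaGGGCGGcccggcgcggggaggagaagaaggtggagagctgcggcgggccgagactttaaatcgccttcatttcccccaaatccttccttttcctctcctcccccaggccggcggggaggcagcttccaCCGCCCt
GGGCGG occurs 2 times and neither CCAAT nor TATAAA occurs.

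Of the other members high in Cumulus, *Itga11*, the α11 chain of a collagen receptor, was between −6.56 and −3.16 in IVF, between −3.33 and −1.77 in TSA(–) and between −4.05 and −2.27 in TSA(+). The highest IVF array overlapped the clones, and the difference was 2.39 ± 0.36 in TSA(–) (adjusted p = 7.71e-06) and 3.08 ± 0.37 in Spi-C NT (adjusted p = 2e-07). It reached 39.3% of its Cumulus excess in TSA(–), 22.0% in TSA(+), 63.7% at 1.0 mg/ml and 72.5% at 0.1 mg/ml. *Col18a1*, a basement membrane collagen whose end is released as endostatin, lay between −2.48 and −1.17 in IVF and between −1.06 and 0.08 in TSA(–) without overlap (1.50 ± 0.26, adjusted p = 4.38e-05), and its second probe gave 1.47. That is 3.87% of its Cumulus excess. *Itgb5* lay between 0.39 and 1.30 in IVF and between 1.48 and 2.24 in TSA(–) (0.97 ± 0.17, adjusted p = 7.78e-05), or 6.01%.

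*Lamb2*, the laminin β2 chain gene, went the other way. It was between −2.18 and −1.16 in IVF, between −3.71 and −2.27 in TSA(–) and between −3.22 and −2.52 in TSA(+), while Cumulus stood at 1.53, 1.33, 1.23 and 0.97. It was thus below IVF by −1.34 ± 0.25 in TSA(–) (adjusted p = 0.000164), by −1.25 ± 0.27 in TSA(+) (adjusted p = 0.000776) and by −1.42 ± 0.23 in Spi-C NT (adjusted p = 1.03e-05), although the donor cells carried it above IVF. *Itgam* lay between −4.28 and −2.57 in IVF and between −9.67 and −3.64 in TSA(–), where 3 of 8 arrays were well above background (−3.88 ± 0.71, adjusted p = 0.000108). In TSA(+) it lay between −6.55 and −3.07 (−1.08 ± 0.76, not called), and its second probe gave −0.72 in TSA(–), not called.

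Beyond the members high in Cumulus, others differed between clones and IVF. The 8 called members with the largest rises in TSA(–) that did not overlap IVF were *Col27a1*, *Itgal*, *Col5a3*, *Itgav*, *Col18a1*, *Itgb7*, *Col8a2* and *Col2a1*. *Itgal*, the αL chain of the leukocyte integrin LFA-1, was between −2.32 and −1.67 in IVF, between −0.46 and 0.42 in TSA(–) and at −4.67, −4.69, −4.32 and −4.23 in Cumulus. It was higher in TSA(–) by 2.06 ± 0.18 (adjusted p = 1.07e-09), in TSA(+) by 2.16 ± 0.20 (adjusted p = 1.94e-09) and in Spi-C NT by 2.23 ± 0.16 (adjusted p = 3.84e-11). Of the 9 leukocyte markers, 0 were called in TSA(–) against IVF, and their summed level was 0.445 to 1.11 times the 75th percentile in TSA(–) and 0.745 to 1.44 times in IVF.

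*Itgav* was between −2.62 and −2.13 in IVF and between −1.01 and −0.35 in TSA(–), higher by 1.73 ± 0.18 (adjusted p = 2.46e-08), and its other probe gave 1.02, also called. *Col5a3*, *Col8a2* and *Itgb7*, which were higher in IVF than in OC, were higher again in clones. *Col5a3* was between −2.80 and −0.32 in IVF, between −0.17 and 1.44 in TSA(–) and between 1.76 and 2.95 in TSA(+), which is 2.01 ± 0.48 (adjusted p = 0.00181) and 3.83 ± 0.51 (adjusted p = 1.2e-06) above IVF. Its second probe was not called and stood below IVF in both, by −0.92 and −0.93, and the TSA(–) call was lost with the mean over its probes. *Col8a2* was higher in TSA(–) by 1.38 ± 0.34 (adjusted p = 0.00235), *Itgb7* by 1.45 ± 0.32 (adjusted p = 0.000981) and *Col2a1*, the cartilage fibrillar collagen, by 0.98 ± 0.18 (adjusted p = 0.000147), with 2 probes of *Col2a1* called the same way.

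The members that fell in TSA(–) without overlap were *Itgb3*, *Lamb2*, *Lama5* and *Col4a4*. *Itgb3* was between 4.50 and 5.07 in IVF and between 2.97 and 3.66 on the 7 TSA(–) arrays left after 1 outlier spot was dropped (−1.37 ± 0.16, adjusted p = 1.61e-07). In TSA(+) it was between 3.07 and 3.34 (−1.61 ± 0.17, adjusted p = 2.22e-08), and in Spi-C NT lower by −1.02 ± 0.11 (adjusted p = 4.14e-08). *Itgb3* and *Itgav*, whose products pair, thus changed in opposite directions in the clones. *Lama5* was lower by −0.88 ± 0.24 in TSA(–) (adjusted p = 0.00576) and *Col4a4* by −0.68 ± 0.13 (adjusted p = 0.000224). The *Lama5* call in TSA(–) was lost without IVF replicate 3, 4 or 6 or TSA(–) replicate 6 or 8 and with arrays centred on the median, with differences from −0.98 to −0.79 over all alternatives. All 17 members called in TSA(–) against IVF had the same sign within each of the 3 slides that held both groups.

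**Figure D4:**
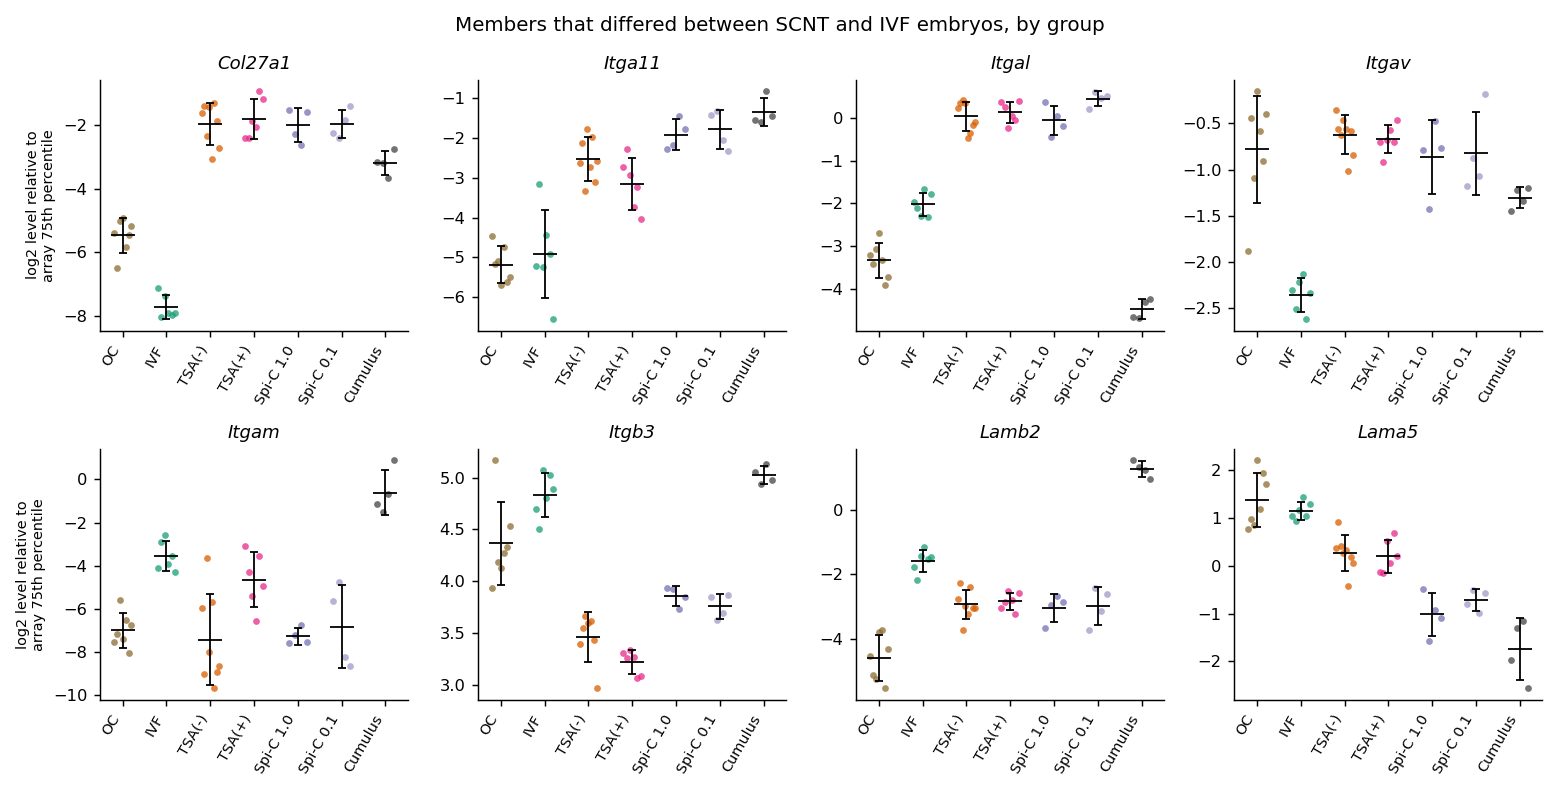
Log2 level over the array's 75th percentile (y axis, 1 scale per gene) for 8 members called in TSA(-) against IVF, with 1 point per array in 7 groups and bars for the mean and SD. *Col27a1*, *Itga11*, *Itgal* and *Itgav* lie higher in the 4 cloned groups than in IVF, and *Itgb3*, *Lamb2* and *Lama5* lie lower, while *Itgam* is scattered and was well above background on 3 of 8 TSA(-) arrays.

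In TSA(+) against IVF, *Col27a1*, *Col5a3*, *Col15a1*, *Itgal* and *Itgb7* had the largest rises without overlap and *Itgb3*, *Lamb2*, *Lama5* and *Itgb1* were among the largest falls. *Col15a1*, a collagen near type XVIII in structure, was between −4.67 and −2.04 in TSA(+) and between −8.68 and −4.91 in IVF, where 3 of 6 arrays were well above background (3.47 ± 0.75, adjusted p = 0.000803), and the call was lost with the mean of its 2 probes. In TSA(–) its difference was 1.29 ± 0.70 and not called. *Itgb1* was lower in TSA(+) by −0.91 ± 0.20 (adjusted p = 0.00108), a call lost with arrays centred on the median, with a 2-fold change required and with the mean over its probes (−0.54 at the smallest). The *Lama5* call in TSA(+) was lost in 10 of 26 alternatives. With arrays centred on the median, 13 members were higher and 3 lower in TSA(+) than in IVF.

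The effect of TSA itself was tested as TSA(+) against TSA(–). The 1 member called was *Col6a4*, a type VI collagen gene, which stood between −3.14 and −2.01 in TSA(–) and between −4.42 and −3.37 in TSA(+) without overlap (−1.21 ± 0.22, adjusted p = 0.00748). Its difference was −0.71 on the 1 slide and between −1.70 and −0.80 on the 3 scan days that held both groups. The call was lost with quantile normalization, with centring on the median, with slide as a block, and without any single one of 8 of the 14 arrays (the TSA(–) replicates 1, 2, 4 and 5 and the TSA(+) replicates 2, 3, 5 and 6). A second *Col6a4* probe was not called (0.32 ± 0.47). At an unadjusted p under 0.05, 17 of 77 members differed. No share of all genes is given beside it, so this count is not read as a result about the members. Members called against IVF in 1 of the 2 groups were therefore not shown to differ between them: *Col15a1* differed by 2.17 ± 0.70 (adjusted p = 0.112), *Itgam* by 2.80 ± 0.71 (adjusted p = 0.0453) and *Itgb1* by −0.75 ± 0.19 (adjusted p = 0.0458). *Col5a3*, called in both, differed by 1.83 ± 0.48 (adjusted p = 0.0499).

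Of the genes around the matrix, some were called between clones and IVF, where 10.1% of all genes were higher and 13.4% lower in TSA(–). In TSA(–), 2 of 16 matrix partners were higher and 1 lower, namely *Nid1* (1.99), the perlecan gene *Hspg2* (1.30) and the vitronectin gene *Vtn* (−2.73). Of 20 collagen-processing genes, *Pcolce* was higher (1.63) and *P4ha1* (−0.78) and *P4ha2* (−1.17) lower. Of 20 adaptors and kinases, the parvin gene *Parvg* (2.85) and *Src* (1.49) were higher and *Itgb1bp1* (−1.52) lower. Of 15 proteases and inhibitors, *Mmp15* was higher (1.13) and *Mmp23* (−1.46) and *Adamts1* (−3.43) lower. In TSA(+) against IVF, 10.3% of all genes were higher and 14.1% lower. Counts there were 3 higher and 1 lower for matrix partners and 1 and 2 for collagen processing. For adaptors and kinases they were 3 and 1, and for proteases and inhibitors 1 and 2. None of these genes was called in TSA(+) against TSA(–).

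The effect of Spi-C mRNA was tested as Spi-C NT against TSA(–), across the change of scanner model. The called members that did not overlap were *Col4a4*, *Itga3* and *Itga6* on the higher side and *Col9a2*, *Lamb1* and *Lama5* on the lower. *Col4a4*, which pairs with *Col4a3* and *Col4a5* chains, stood at −0.76, −0.46, −0.57 and −0.62 at 1.0 mg/ml and −0.32, −0.63, −0.63 and −0.73 at 0.1 mg/ml. It lay between −2.68 and −2.51 in TSA(–) and between −2.25 and −1.70 in IVF, so Spi-C NT was above both (2.01 ± 0.09 over TSA(–), adjusted p = 3.1e-14). The Cumulus arrays, scanned on the same model as Spi-C NT, stood at −0.89, −0.60, −0.42 and −0.80, and OC, scanned on the other, lay between −1.18 and −0.40. *Col4a3* was higher by 0.68 ± 0.17 (adjusted p = 0.00356), with overlap.

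*Itga3*, the α3 chain of a laminin receptor, stood at 0.63, 1.37, 1.54 and 1.88 at 1.0 mg/ml and 1.39, 0.71, 1.60 and 1.11 at 0.1 mg/ml, above all TSA(–) arrays, which lay between −1.74 and 0.05 (1.96 ± 0.28, adjusted p = 7.29e-06). Its 3 probes disagreed in direction, a second giving 1.44 ± 0.20 (adjusted p = 4.64e-06) and another, well above background on 12 of the 39 arrays, giving −1.29 ± 0.30 (adjusted p = 0.00149). *Itga6* was higher by 0.66 ± 0.11 (adjusted p = 3.34e-05). *Lamb1* stood at 0.55, 0.66, 0.72 and 0.24 at 1.0 mg/ml, 0.25, 0.91, 0.36 and 0.69 at 0.1 mg/ml and between 1.70 and 2.42 in TSA(–) (−1.48 ± 0.14, adjusted p = 1.63e-08). *Lama5* was lower by −1.14 ± 0.17 (adjusted p = 1.01e-05) and *Col9a2* by −2.03 ± 0.39 (adjusted p = 0.000226). The calls of *Col9a2* and *Itga6* were lost with all 39 arrays in 1 fit. *Lamb1*, *Lama5* and *Col9a2* were high in OC relative to Cumulus, and the Spi-C NT arrays lay below IVF as well for each of them.

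Spi-C NT and TSA(–) were each compared with the same IVF arrays, and both values are given side by side. *Itgav* was higher by 1.51 ± 0.15 in Spi-C NT and 1.73 ± 0.18 in TSA(–). *Itgb7* was higher by 1.80 ± 0.21 and 1.45 ± 0.32, and *Col8a2* by 1.74 ± 0.14 and 1.38 ± 0.34. *Itgb6* was higher by 1.27 ± 0.29 and 1.24 ± 0.33, with overlap in both. The 2 concentrations of Spi-C mRNA were scanned on the same 2 slides. None of the 77 members was called between them by limma or by Tukey's HSD, and by limma 0.0% of all genes were. At an unadjusted p under 0.05, 5 members differed. The share of all genes is not given, so that count is not read as a result about the members either. With arrays centred on the median, 3 members were higher and 7 lower in Spi-C NT than in TSA(–).

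**Figure D5:**
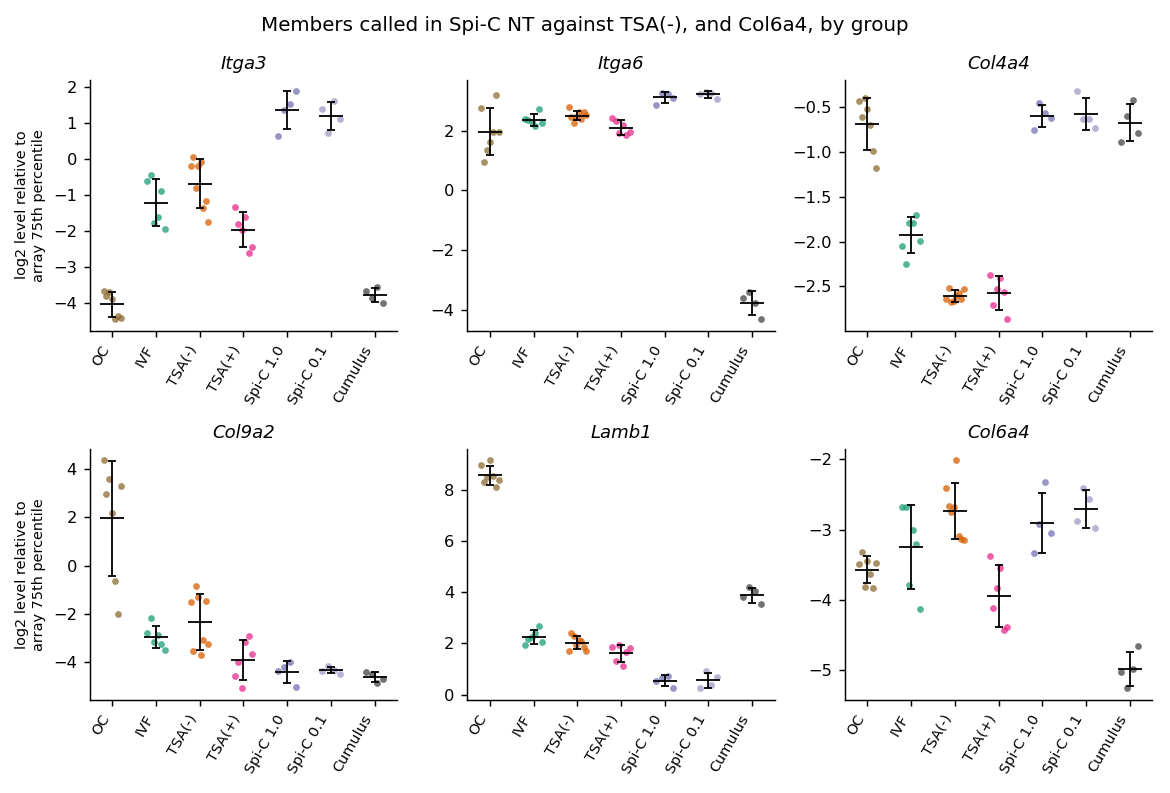
Log2 level over the array's 75th percentile (y axis, 1 scale per gene) for 5 of the members called in Spi-C NT against TSA(-) and for *Col6a4*, with 1 point per array in 7 groups and bars for the mean and SD. *Col4a4* lies between −0.76 and −0.32 on the 8 Spi-C NT arrays and between −2.68 and −2.51 in TSA(-), and *Col6a4* lies lower in TSA(+) than in TSA(-).

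Genes that act on the matrix were called in both directions in Spi-C NT against TSA(–). The tensin gene *Tns1* (2.23), the talin gene *Tln1* (1.06) and the tenascin gene *Tnc* (1.51) were higher. *Serpinh1* (−2.90) and *Nid1* (−1.14) were lower. In all, 3 of 20 collagen-processing genes were higher and 2 lower, 2 of 20 adaptors and kinases were higher and 1 lower, 1 of 16 matrix partners was higher and 1 lower, and 2 of 15 proteases and inhibitors were higher and 1 lower, beside 12.5% and 11.2% of all genes.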

How the data were processed

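Total RNA from pools of oocytes, embryos or cumulus cells had been amplified linearly in 2 rounds, labelled with Cy3 and hybridized to 1-colour Agilent mouse arrays of 41174 probes. The authors deposited scanner output of Feature Extraction, and the values used are its background-subtracted processed intensity per probe. They also deposited a table of log2 values, which follows the same scaling with each probe centred on its median. Its scale and centring were found from the scanner values, its column medians lay between −0.297 and 1.08, and it served as an alternative.

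Spots of one probe were averaged on the log2 scale after the 75th percentile of each array was subtracted, and probes with an intensity of at least 10 on at least 1 of the 39 arrays were tested. Control spots and outlier spots were left out, after which 1820 probe values were missing. Probes were named through RefSeq accessions: 26888 had 1 symbol, none had several and 14286 had none. Groups were compared in R 4.3.3 with limma 3.58.1 (lmFit and eBayes) on the log2 scale. OC, IVF, TSA(–), TSA(+) and Cumulus arrays shared 1 fit, and the 2-cell groups shared another for the Spi-C comparisons, as in the study. A probe was called at a Benjamini-Hochberg adjusted p under 0.01 over all probes tested. Where a probe was well above background on no array of the lower group, the fold is a bound against the lowest signal well above background. Replicate numbers did not pair samples (correlations between −0.0877 and 0.0862). The limma step was tested on simulated data without slide, scan day or scanner effects.

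The genes, gene lists and tests were chosen with earlier results of these data known. Genes named in the text were 16 measured members of a set list and, per comparison, the called members with the largest differences in each direction whose groups did not overlap and which were above background throughout the higher group (up to 8 for Cumulus or TSA(–) against IVF, 6 for IVF against OC and 5 for the others). The 5 members highest in Cumulus over OC and the 5 of the Cumulus-high members with the largest excess over IVF in TSA(–) were added, and all other members named were chosen after their values were seen. The alternatives were other scalings, filters, thresholds and blocks, the mean over the probes of a gene, and leaving out each array. The number of arrays limits the precision. Genes with no probe under their symbol were not analysed here. A named result for 1 member is not reported here.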

Additional observations from a re-analysis of the deposited data

Results flagged for a closer look

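Among 117 groups of arrays of named members, 7 held 1 array far from the others of its group. The rule has a nominal rate of about 1 in 20, which was not measured here. *Col5a1* stood at −9.35 on IVF replicate 6, not well above background, and between −5.18 and −2.85 on the other 5 IVF arrays. *Itga2* stood at −6.80 on IVF replicate 3, and between −9.38 and −8.46 on the others. In OC, *Col5a2* stood at −4.05 on replicate 3, with the others between −7.83 and −6.37, and *Col9a3* at −3.27 on replicate 2, with the others between −1.97 and −1.15.

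TSA(–) replicate 8 was the lowest array of its group for *Col8a2*, at −0.31 with the others between 0.07 and 0.41, and for *Itgb3*, at 2.97 with the others between 3.39 and 3.66. *Itgae* stood at −5.06 on Cumulus replicate 3, and between −6.08 and −5.99 on the other Cumulus arrays.

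The effects of the TSA(+) and TSA(–) groups against the same IVF embryos differed for *Col6a4*, by −1.21 on the log2 scale, where the difference itself was tested (limma, adjusted p = 0.00748). The call was lost in 13 of 29 alternatives, and a second *Col6a4* probe was not called.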

How the results depend on the processing

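Of 64 comparisons of named members, 52 kept their call under every alternative, and over 1694 values 43 lost the call and none changed direction. The count of members called in TSA(+) against TSA(–), 1 in the main setting, was 4 with normexp background correction, 2 with the strict filter, 2 with all 39 arrays in 1 fit, 6 at an adjusted p under 0.05, 6 with Tukey's HSD, and 0 with slide as a random block, with slide as a fixed block or with the mean over the probes of a gene. The count in TSA(+) against IVF was 33 at an adjusted p under 0.05. That in Spi-C NT against TSA(–) was 6 with all 39 arrays and 16 at 0.05. On the log2 scale, the median percentage left was 1.88% in TSA(–), −0.784% in TSA(+), 0.232% at 1.0 mg/ml and 3.30% at 0.1 mg/ml, and in TSA(+) it was 0.177% with quantile normalization and 0.211% with normexp. The cause of these changes was not tested.

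With the replicate block, 57, 59, 46, 15, 17, 2, 7, 25 and 0 members were called in Cumulus against IVF, Cumulus against OC, IVF against OC, TSA(–) against IVF, TSA(+) against IVF, TSA(+) against TSA(–), Spi-C NT against TSA(–), Spi-C NT against IVF and between concentrations. Of named members, only *Lama5* lost its call, in both TSA groups against IVF. Same-numbered arrays did not deviate together.

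When each array was left out in turn, the counts ran from 49 to 58 in Cumulus against IVF, 58 to 61 in Cumulus against OC, 44 to 47 in IVF against OC, 15 to 19 in TSA(–) against IVF, 16 to 23 in TSA(+) against IVF, 0 to 3 in TSA(+) against TSA(–), 9 to 11 in Spi-C NT against TSA(–), 25 to 28 in Spi-C NT against IVF, and 0 to 0 between concentrations. The median percentage left ran from −0.0974% to 0.658% in TSA(–), where the highest value came without IVF replicate 6, from −0.246% to 0.00886% in TSA(+), from −0.247% to −0.00172% at 1.0 mg/ml and from −0.214% to 0.103% at 0.1 mg/ml. In OC, 14 members were well above background on no array, which limits what can be said of their change.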
